A study of Mus musculus with 12 samples.

Results

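The secreted Wnt antagonists are extracellular proteins that keep Wnt ligands from signalling through their receptors. The 9 genes followed here are the secreted frizzled-related genes *Sfrp1*, *Sfrp2*, *Frzb* (also known as *Sfrp3*), *Sfrp4* and *Sfrp5*, the Wnt inhibitory factor *Wif1*, and the Dickkopf genes *Dkk1*, *Dkk2* and *Dkk3*. They were taken by gene symbol from the 39017 genes of the deposited table, and each symbol belongs to 1 Ensembl identifier. Their RNA was measured by RNA sequencing of whole adrenals, trimmed of adherent fat, from female mice 10 to 11 weeks old on a mixed sv129-C57Bl/6 background. The 6 control mice (Ctrl), named wild type in the sample titles, carried ASCre/+ alone according to their genotype labels, which places Cre at the *Cyp11b2* (aldosterone synthase, AS) locus and limits it to aldosterone-producing cells of the zona glomerulosa (zG). The 6 βCat-GOF mice carried ASCre/+ together with *Ctnnb1* fl(ex3)/+, so that in these cells Cre removes exon 3 from 1 *Ctnnb1* allele and β-catenin is stabilized. Each library came from 1 mouse, and mice are called here by group and replicate number.

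In the canonical pathway a Wnt ligand binds a Frizzled receptor and the co-receptors Lrp5 and Lrp6, and β-catenin then escapes degradation and activates genes together with TCF/LEF factors. Secreted frizzled-related proteins share the ligand-binding domain of Frizzled, and like Wif1 they bind Wnt ligands outside the cell. Dkk1 and Dkk2 act on the co-receptors instead, together with Kremen proteins, while Dkk3 is a divergent relative with no settled role in this pathway. In the adrenal cortex Wnt signalling is highest under the capsule, where zG cells make aldosterone.

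*Frzb* was the antagonist with the most RNA in the adrenal, and the one called different between the groups. It fell by 0.99 on the log2 scale in βCat-GOF adrenals, to 0.504 of the control level, while none of the other 5 antagonists with enough counts to be tested passed in either direction. *Wif1*, *Sfrp2* and *Dkk1* were at or near the limit of detection in both groups. Among other extracellular inhibitors of the pathway, *Notum* and *Apcdd1* were higher in βCat-GOF adrenals.

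The 6 control libraries held between 14090378 and 25625494 counts on genes (median 21705716), and the 6 βCat-GOF libraries between 13484675 and 24951480 (median 20417937). At these depths 3 counts, the limit that a count of 0 allows, correspond to between 0.117 and 0.222 CPM (the share of a library, scaled to a common total), a limit that covers counting error only. *Ctnnb1* itself was at 21620 normalized counts in Ctrl and 21400 in βCat-GOF libraries, but a count per gene does not show the loss of an exon. Markers of the adrenal cortex, of its zG and zona fasciculata (zF) and of the medulla were present in all 12 libraries. In markers of other tissues 3 libraries stood apart. Ctrl replicate 3 had the highest summed level of 13 capsule and fibroblast genes, 7638 normalized counts per kilobase against 3842 to 5827 in the other controls. Its sums of 8 medulla genes and of 6 Schwann and neural genes, 96890 and 149.4, were also the highest of the 12. Ctrl replicate 4, the control with the least *Frzb*, had a summed level of 7 adipocyte genes of 12090, against 1141 to 4781 in the other controls and 2300 to 9147 in βCat-GOF mice. βCat-GOF replicate 4 held transcripts of liver, with 1202 normalized counts of albumin (*Alb*) against 0.762 to 2.93 in the other 11 mice. All controls carry animal numbers that begin with 1367, and the βCat-GOF mice carry 1369 except replicate 5, which carries 1387, so a litter or batch that follows these numbers cannot be told apart from the genotype. The groups are bulk tissue, in which fewer cells of a type and less RNA per cell cannot be told apart.

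Normalized counts are counts divided by a size factor of each library. The test was the quasi-likelihood test of edgeR, and a gene is called higher or lower at an adjusted p under 0.05 over the 14953 genes with enough counts to be tested. Of these, 2.16% were called higher and 1.52% lower in βCat-GOF adrenals. Of the 9 antagonists 6 could be tested, and *Frzb* was called lower and none was called higher. With the study's further cut-offs, a fold change above 1.4 and a base mean above 100 normalized counts, 0.869% of all tested genes were lower and 1.48% higher, and *Frzb* was again the antagonist among them. In 1.16% of tested genes all βCat-GOF mice were below all controls, and in 1.61% all were above. *Frzb* was among the former, and in each of the other 8 antagonists the groups overlapped. At an unadjusted p under 0.05, which 10.7% of all tested genes passed as lower and 9.73% as higher, *Frzb* and *Dkk3* were lower and none of the 6 was higher.

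**Figure D1:**
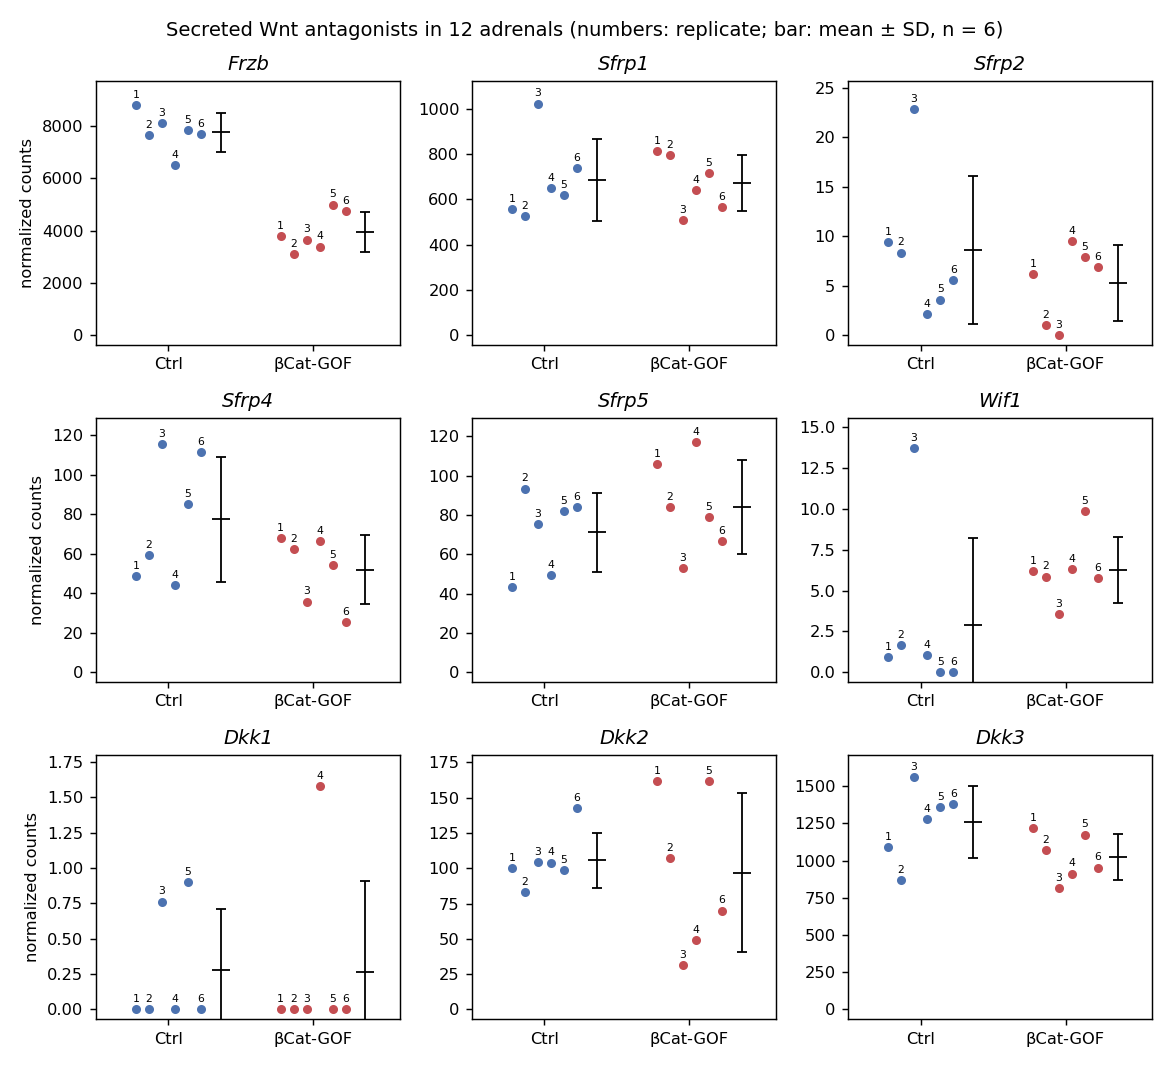
Normalized counts (vertical axis, each panel on its own linear scale) of the 9 antagonists in 6 Ctrl and 6 βCat-GOF adrenals. Each point is 1 mouse, the number beside it is its replicate number, and the bar gives the mean ± SD. *Frzb* is the panel in which the groups lie apart, and Ctrl replicate 3 is the highest control for *Sfrp1*, *Sfrp2*, *Sfrp4*, *Wif1* and *Dkk3*.

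*Frzb* encodes a secreted frizzled-related protein that binds Wnt ligands, first described for its part in skeletal development. It lies on the minus strand of chromosome 2, at chr2:80411970-80447625 of GRCm38 (mm10), and its exons overlap those of no other gene. Its normalized counts in the 6 control mice were 8805, 7671, 8129, 6514, 7834 and 7690, and in the 6 βCat-GOF mice 3801, 3089, 3660, 3386, 4993 and 4738. The lowest control was therefore above the highest βCat-GOF mouse, and within each group the mice lay close together. Mean levels were 7774 ± 747.9 for Ctrl and 3945 ± 758.2 for βCat-GOF (SD over 6 mice). This is a log2 fold change of -0.99 (standard error 0.12, 95% confidence interval -1.25 to -0.73, adjusted p = 0.000658 from edgeR), which ranks *Frzb* at place 21 of the 14953 genes by p. The exact permutation test over the 12 mice gave a two-sided p of 0.0022, the smallest this design allows. Leaving out each mouse in turn kept the log2 fold change between -1.06 and -0.92, with *Frzb* called lower all 12 times (edgeR, adjusted p at most 0.00307), and these include the fits without Ctrl replicates 3 or 4 and without βCat-GOF replicate 4. The mouse numbered 1387, βCat-GOF replicate 5, had the highest *Frzb* of its group.

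Markers of other compartments were compared between the groups as well. Over all tested genes 2.16% were called higher and 1.52% lower. Of 8 medulla genes none was called, 7 had a negative fold change, and their median log2 fold change was -0.35, against 0.000105 for all tested genes. Their summed level ran from 31480 to 96890 normalized counts per kilobase in controls and from 39730 to 77490 in βCat-GOF adrenals. Of 8 zG markers 4 were higher (*Dab2*, *Agtr1a*, *Agtr1b* and *Vsnl1*), with summed levels of 7848 to 12800 in controls and 9467 to 17980 in βCat-GOF adrenals. *Cyp11b2*, the zG marker whose locus carries Cre, was not called (log2 fold change -0.18, edgeR adjusted p = 0.82). *Hsd3b6*, *Shh* and *Wnt4* were not called either, at 0.155, 0.96 and 0.79. Of 4 zF markers 1 was higher (*Akr1b7*), with sums of 117600 to 143000 in controls and 74410 to 261200 in βCat-GOF adrenals. Of 6 macrophage markers 2 were lower (*Adgre1* and *Mrc1*), with sums of 1593 to 2842 and 1406 to 2454. None of 13 capsule and fibroblast genes (median log2 fold change -0.03, 6 positive and 7 negative) or of 7 endothelial genes (median -0.22, all 7 negative) was called. Nor was any of 5 tested Schwann and neural genes (median -0.17, all 5 negative). The part of these compartments in the *Frzb* result was not tested.

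*Sfrp1* encodes a broadly expressed family member that binds Wnts. In controls it had between 526 and 1023 normalized counts (median 633.6), and in βCat-GOF adrenals between 506.4 and 811.6 (median 678.4). The groups covered nearly the same range, and the highest value belonged to Ctrl replicate 3. The means were 684.7 ± 181.6 and 672.2 ± 123.2 (SD, n = 6), with a log2 fold change of -0.03 and a 95% confidence interval of -0.39 to 0.33 (edgeR, adjusted p = 0.942). The sign of this small difference turned under several alternatives, among them the fit without Ctrl replicate 3, which gave 0.13.

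*Sfrp4*, a family member known from bone and phosphate metabolism, had between 44.1 and 115.8 normalized counts in controls (median 72.3) and between 25.3 and 68.0 in βCat-GOF adrenals (median 58.3). All 6 βCat-GOF mice lay below the control median, and 2 lay below every control. The means of 77.5 ± 31.6 and 52.0 ± 17.6 (SD, n = 6) correspond to a log2 fold change of -0.58, with a standard error of 0.31 and a 95% confidence interval of -1.24 to 0.08 (edgeR, adjusted p = 0.311). The interval is wide, with a total of 492 counts in the controls and 311 in the βCat-GOF mice. A fall as large as that of *Frzb* and no change at all both lie inside it.

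*Sfrp5*, known as a Wnt inhibitor from fat tissue, had between 43.1 and 93.4 normalized counts in controls (median 78.6) and between 52.8 and 117 in βCat-GOF adrenals (median 81.4). The groups overlapped, with 2 βCat-GOF mice, replicates 1 and 4, above every control. The means were 71.1 ± 20.2 and 84.2 ± 24.0 (SD, n = 6), and the log2 fold change was 0.23 (95% confidence interval -0.29 to 0.76, adjusted p = 0.636 from edgeR).

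*Sfrp2*, a family member with a signal in few adrenal reads, was below the filter on low counts. The controls had 10, 10, 30, 2, 4 and 4 counts and the βCat-GOF mice 8, 1, 0, 6, 8 and 6. Of the 60 counts in the controls, 30 came from Ctrl replicate 3 alone. The means of 8.64 ± 7.49 and 5.24 ± 3.86 normalized counts (SD, n = 6) differed by less than the mice of a group did (two-sided p = 0.4, exact permutation). Without Ctrl replicate 3 the control mean was 5.80 ± 3.07. Exons of the antisense gene *Gm26771* cover 16.1% of its exons, and with a strand setting that is not stated reads of both genes cannot be told apart there. A search for copies of the members found this overlap and no other gene.

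*Wif1* encodes the Wnt inhibitory factor, whose WIF domain binds Wnt ligands. The controls had 1, 2, 18, 1, 0 and 0 counts and the βCat-GOF mice 8, 6, 4, 4, 10 and 5. Each βCat-GOF mouse was thus above 5 of the 6 controls, and Ctrl replicate 3 was above all of them. Over the 6 controls the mean was 2.90 ± 5.34 normalized counts and over the βCat-GOF mice 6.26 ± 2.03 (SD, n = 6), a difference within the spread of the controls (two-sided p = 0.173, exact permutation). Without Ctrl replicate 3 the remaining 5 controls held 4 counts in all and averaged 0.731 ± 0.723 normalized counts. With no filter on low counts edgeR gave *Wif1* a log2 fold change of 0.95 (adjusted p = 0.523). All 6 βCat-GOF mice were above these 5 controls, a comparison made after the values were seen and not tested.

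The Dickkopf genes differed widely in level. *Dkk1*, the founding member and an inhibitor that binds Lrp5 and Lrp6, had 2 counts over all 6 controls and 1 count over all 6 βCat-GOF mice, with at most 1 count in any mouse. This is at or under the floor of 3 counts in both groups, so no fold change is given. *Dkk1* is transcribed in response to Wnt signalling in many tissues, and its start region is shown for that reason. Of the 9 antagonists, 6 (*Sfrp2*, *Frzb*, *Sfrp5*, *Wif1*, *Dkk1* and *Dkk2*) have a RefSeq window of 300 bases on GRCm38.p6, from 250 bases before the start of the gene to 50 bases after it. These windows were searched on both strands for CTTTG followed by AA, AT, TA or TT, the core letters recognized by TCF/LEF factors. *Dkk1* alone among the 6 held a match, and it held 2, at 117 and 98 bases before the RefSeq start, while 16.9% of 32851 windows hold at least 1 match and 1.94% at least 2. The stretch with both matches lies on the minus strand at chr19:30549588-30549613, with the matches in capitals:
Dkk1: CTTTGAAatcccatcccggCTTTGTT
In the GENCODE annotation the gene starts 169 bases further upstream, so that these bases fall in its first exon. A match is a run of letters and not a measured binding site, and *Frzb* had none in its window. That window, chr2:80447347-80447646, lies mostly inside the gene in the GENCODE annotation, where *Frzb* starts at 80447625 on the minus strand. Little sequence upstream of that start was therefore searched.

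*Dkk2*, which binds the same co-receptors as *Dkk1*, was the most uneven of the tested members in βCat-GOF adrenals. Its normalized counts were 100.2, 83.4, 104.4, 104, 98.8 and 142.5 in the controls and 161.6, 107.2, 31.3, 49.0, 161.7 and 70.0 in the βCat-GOF mice. Of the latter, 2 mice were above every control and 3 below every control. The coefficient of variation was 58.1% in βCat-GOF adrenals against 18.6% in controls, a spread that was described and not tested. The means of 105.5 ± 19.7 and 96.8 ± 56.2 (SD, n = 6) gave a log2 fold change of -0.11 (95% confidence interval -0.85 to 0.62, adjusted p = 0.89 from edgeR), with a sign that turned in some fits with 1 mouse left out. The mice with high *Dkk2*, replicates 1, 2 and 5, were also those with the highest summed level of 10 canonical Wnt target genes, at 2335, 1980 and 1604 normalized counts per kilobase. Replicates 1 and 2 carry mouse labels that share a stem, and the data do not show that they are separate animals. Replicates 3, 4 and 6, with low *Dkk2*, had sums of 1146, 1436 and 1176. The order was seen within the βCat-GOF group only, as even these sums were above those of all controls (743.5 to 1045). Ctrl replicate 6, the control with the most *Dkk2*, had a sum of 866.6, against a control median of 882. The same 3 mice with high *Dkk2* had the highest zG marker sums, 17410, 17980 and 15240, against 9467, 10320 and 12770 in the others. Their zF marker sums were the lowest of the group, 74410, 107500 and 179200, against 209100, 257300 and 261200. *Sfrp1* and *Dkk3* and the mesenchymal genes *Dcn*, *Lum* and *Prrx1* were likewise highest in these 3 of the 6 mice, with *Prrx1* at 340.9, 259.3 and 332.2 normalized counts against 143.2 to 234.2. *Dcn*, *Lum* and *Prrx1* were picked for their correlation with *Dkk3*, *Sfrp1* and *Dkk2* over these same mice. Their order beside these antagonists was thus largely set by that choice. The summed level of the 13 capsule and fibroblast genes did not fully follow, at 5639, 4017 and 6623 against 3361, 4999 and 3787. The part of these compartments in the spread of *Dkk2* was not tested. *Frzb* did not follow this order, as it was lowest in replicate 2 and highest in replicate 5.

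*Dkk3* was the second most abundant antagonist. Its normalized counts ran from 870.2 to 1559 in controls (median 1320) and from 815.1 to 1216 in βCat-GOF adrenals (median 1011). All 6 βCat-GOF mice lay below the control median, but the ranges overlapped, as Ctrl replicate 2 was lower than 5 of them. The means of 1257 ± 242.3 and 1023 ± 156.7 (SD, n = 6) correspond to a log2 fold change of -0.30 with a standard error of 0.14 (edgeR, adjusted p = 0.243), and the exact permutation test gave a two-sided p of 0.0779. The gene whose level across mice was most like that of *Dkk3* was the fibroblast gene *Dcn* (decorin), itself at a log2 fold change of -0.47 (adjusted p = 0.26).

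**Figure D2:**
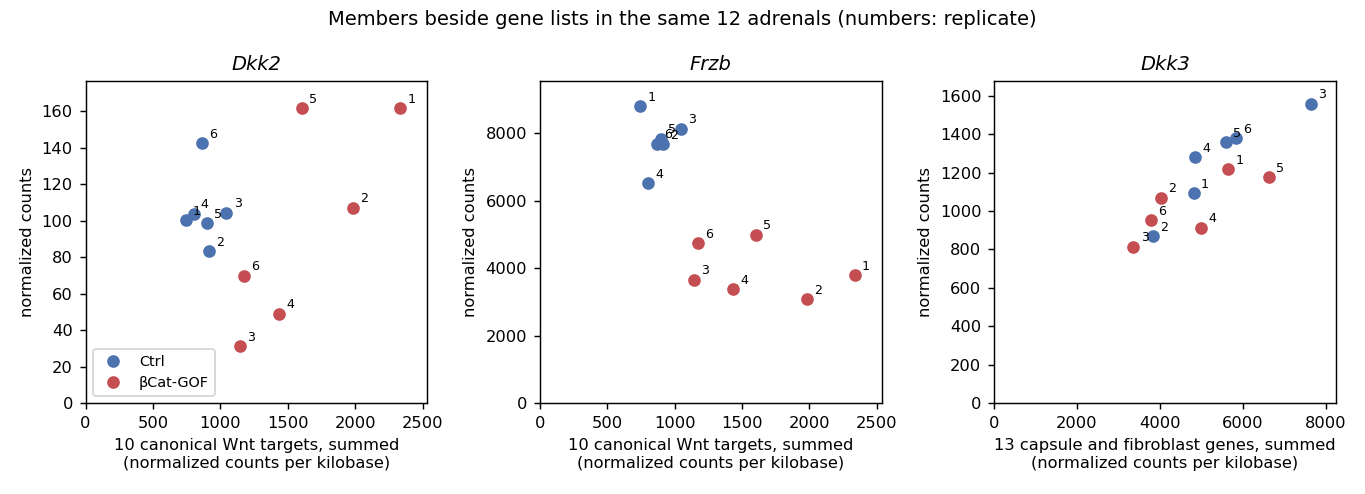
Normalized counts of *Dkk2*, *Frzb* and *Dkk3* (vertical axes) against the summed level of a gene list in the same mouse (horizontal axes, normalized counts per kilobase of exon), with 1 point per mouse and its replicate number. *Dkk2* is high in the βCat-GOF mice 1, 2 and 5, which have the highest sums of canonical targets, *Frzb* is low in all 6 βCat-GOF mice whatever their sum, and *Dkk3* is highest in Ctrl replicate 3, which has the highest sum of capsule and fibroblast genes. That control also has the highest sums of medulla and of Schwann and neural genes, which are not drawn. βCat-GOF replicate 5, at a capsule and fibroblast sum of 6623, has *Dkk3* at 1175.

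To compare the antagonists with each other, normalized counts were divided by the exon length of each gene in kilobases. On this scale the control level was 2402 ± 231.0 for *Frzb*, 374.2 ± 72.1 for *Dkk3* and 156.6 ± 41.5 for *Sfrp1* (SD, n = 6). *Sfrp5*, *Dkk2* and *Sfrp4* followed at 37.4, 28.5 and 18.5, and *Sfrp2*, *Wif1* and *Dkk1* were at 4.01, 1.19 and 0.114. The order *Frzb*, *Dkk3*, *Sfrp1* and then *Sfrp5* held in each of the 12 mice without overlap of the ranges in either group, whereas *Sfrp5*, *Dkk2* and *Sfrp4* overlapped with each other. *Frzb* made up 79.5% of the summed level of the 9 antagonists in controls and 69.0% in βCat-GOF adrenals. The sum over all 9 was 3022 ± 262.4 per kilobase in controls and 1765 ± 259.5 in βCat-GOF adrenals, while the sum of the other 8 was 620.6 ± 122.5 and 546.4 ± 97.7. Among all tested genes with a known length, *Frzb* was at the 98th percentile of level per kilobase in controls and at the 95th in βCat-GOF adrenals, still the highest of the 9.

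**Figure D3:**
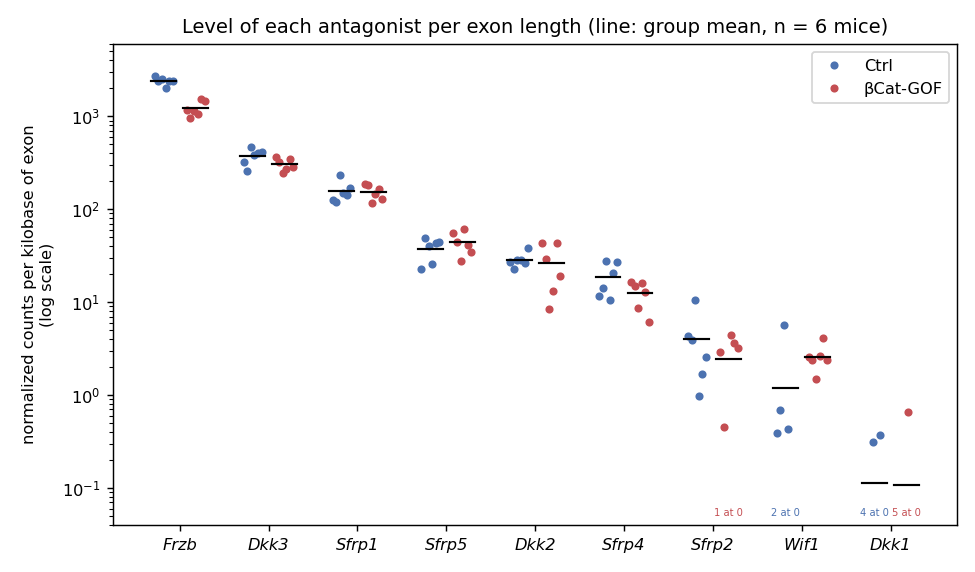
Level of each antagonist in normalized counts per kilobase of exon (vertical axis, log scale) in the 6 Ctrl and 6 βCat-GOF mice, with 1 point per mouse and a line at the group mean. Mice at 0 cannot be drawn on a log axis and are given as a number at the foot. *Frzb* is the highest of the 9 in both groups, at means of 2402 and 1219.

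The genes most like each tested antagonist were found from the Pearson correlation of log2 CPM over the 12 mice, after the mean of each group was subtracted. For *Frzb* these were *Nutf2* (r = 0.913), *Tpx2* (r = 0.864) and *Sap18* (r = 0.859), and none of them was called different between the groups. For *Dkk3* they were *Dcn* (r = 0.951), *Ms4a4d* (r = 0.926) and *Cxcl12* (r = 0.915), for *Sfrp1* *Tspan6* (r = 0.930), *Kcne4* (r = 0.915) and *Lum* (r = 0.914), and for *Dkk2* *Prrx1* (r = 0.942), *Npr3* (r = 0.923) and *Lbh* (r = 0.918). *Dcn*, *Lum* and *Prrx1* are genes of fibroblasts and other mesenchymal cells. *Sfrp4* was most like *Bcam* (r = 0.900), *Lzts1* (r = 0.889) and *Gm4980* (r = 0.886), and *Sfrp5* most like *Plxnb2* (r = 0.896), *Itga3* (r = 0.873) and *Ubap2* (r = 0.871). Of the genes listed for antagonists other than *Frzb*, *Kcne4*, *Bcam*, *Lzts1* and *Itga3* were called higher (edgeR adjusted p from 0.042 to 0.0498). Some correlations were weaker in controls alone. The 3 genes most like *Dkk2* had r of 0.656 to 0.73 in controls and 0.968 to 0.993 in βCat-GOF mice. For *Frzb* and *Tpx2* the values were 0.521 and 0.94. The r over 12 mice are the highest values among 11431 genes in 12 shared libraries and are given as a description.

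In the other lists of the pathway calls were uneven, with 5 of 10 canonical targets called higher, beside 2.16% of all tested genes. Among 19 Wnt ligands 9 could be tested and none was called, 6 with a positive and 3 with a negative fold change (median log2 fold change 0.41). *Wnt4*, the main ligand of the outer cortex, had 5575 ± 1731 normalized counts in Ctrl mice against 9647 ± 3242 in βCat-GOF mice (log2 fold change 0.79, edgeR adjusted p = 0.0945). *Wnt5a* was at 1226 ± 138 and 1004 ± 196.1 (log2 fold change -0.30, edgeR adjusted p = 0.211). *Wnt2b* and *Wnt5b* had log2 fold changes of 0.46 and -0.43.

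Of 15 receptors and co-receptors, all tested, *Ror2*, a receptor of non-canonical Wnt signals, was higher, with 128.3 ± 17.5 and 282 ± 104.1 normalized counts (log2 fold change 1.14, edgeR adjusted p = 0.0125). None was lower, and the median log2 fold change was 0.16. The genes of the proteins through which Dkk1 and Dkk2 act were expressed in both genotypes. *Lrp6* was at 2476 normalized counts in Ctrl and 2753 in βCat-GOF mice, *Lrp5* 1881 and 2317, and *Kremen1* 747 and 721.1, and none of the 3 was called. *Kremen2* was at 1.47 and 1.69.

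Of 10 other extracellular inhibitors 5 could be tested, and 2 were higher. *Notum*, an enzyme that removes the lipid of Wnt ligands, went from 87.8 ± 15.4 to 371 ± 145.4 normalized counts (log2 fold change 2.08, edgeR adjusted p = 0.000658). *Apcdd1*, a membrane inhibitor, went from 391.7 ± 80.3 to 1073 ± 464.5 (log2 fold change 1.45, edgeR adjusted p = 0.00625). Both are also Wnt targets and stand in the list of 10 canonical targets, of which 5 were higher (with *Nkd1*, *Rnf43* and *Tcf7*), none was lower and the median log2 fold change was 0.72. The paper names *Notum*, *Apcdd1*, *Nkd1*, *Tcf7*, *Axin2* and *Lef1* as upregulated in these same libraries. The study used DESeq2, a different test from the edgeR test used here. With edgeR *Axin2* and *Lef1* had positive fold changes but were not called (log2 fold change 0.70 and 0.90, edgeR adjusted p = 0.0739 and 0.0845). *Lgr5* was at -0.87 (edgeR adjusted p = 0.106). *Igfbp4*, *Sostdc1* and *Tpbg* were not called, at log2 fold changes of 0.15, -0.0021 and -0.47. *Sost*, *Dkk4*, *Dkkl1* and *Cer1* were near 0 in both groups.

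**Figure D4:**
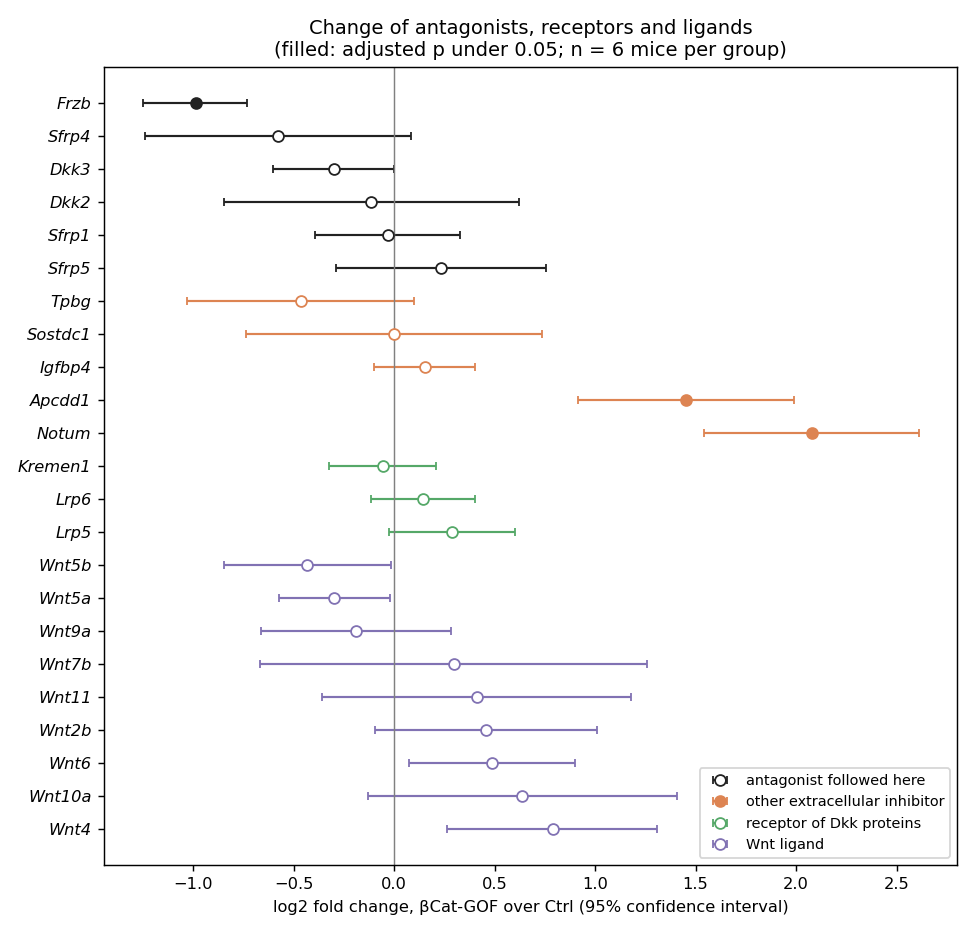
Log2 fold change of βCat-GOF over Ctrl (horizontal axis) with its 95% confidence interval for the tested antagonists, other extracellular inhibitors, receptors of Dkk proteins and Wnt ligands (n = 6 mice per group). Filled points have an edgeR adjusted p under 0.05. *Frzb* at -0.99 is the filled point on the negative side, and *Apcdd1* at 1.45 and *Notum* at 2.08 are those on the positive side.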

How the data were processed

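According to the study's methods and the labels, the authors aligned reads to mm10 with STAR, counted uniquely mapping reads with featureCounts 1.4.4 and used DESeq2 1.6.3. The annotation release and strand setting are not given in the sources used here. The authors deposited raw counts per gene and a signal table of counts divided by 1 factor per library. The counts were used in every test, and the symbols came from the signal table. The 9 members and the gene lists were chosen with earlier results of these data known.

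Genes were tested with edgeR 4.0.16 (TMM, filterByExpr, quasi-likelihood, Benjamini-Hochberg over 14953 genes) in R 4.3.3. Values shown are counts divided by DESeq2 1.42.0 size factors. The standard error is the log2 fold change divided by the square root of F. Single genes had an exact two-sided permutation test over 924 assignments of the mice. The 12 libraries were counted as separate mice, as the study gives 6 per group. Within 3 pairs of labels that share a stem, the chi-square of the counts per degree of freedom was 41.87 to 45.85, against 16.79 to 145.23 in other pairs, so none is 1 library deposited again. This does not show separate animals, and βCat-GOF replicate 1 was closer to replicate 2, its pair, than to the other 4 (85.14 to 145.23). Fits without 1 mouse of each pair are among the alternatives. The edgeR step was tested on simulated data and recovered 186 of 200 changed genes with 5 false calls, and DESeq2 recovered 192 with 40 false calls. Exon lengths came from GENCODE M21 on GRCm38. Copies were searched for with blastn 2.17.0 (at least 95% identity over 10% of the transcript).

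Named genes are the members, the 3 genes most like each tested member, called genes of the lists, at most 4 others with large counts, and markers. *Sost*, *Dkk4*, *Dkkl1*, *Cer1*, *Tpbg* and *Kremen2* were named after their values were seen. Alternatives were other normalizations and filters, DESeq2, 1 surrogate variable (sva 3.50.0) and leaving out mice. The size factors of the deposited signal, and the control means of *Wif1* and *Sfrp2* without Ctrl replicate 3, were added after seeing the data. Protein sequences were not used here.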

Additional observations from a re-analysis of the deposited data

Results flagged for a closer look

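In 4 of the 18 groups of 6 mice tested, 1 mouse lay far from the others by Dixon's gap, a gap that chance gives in about 1 in 20 groups of continuous values. That rate does not hold for genes with few counts, as a single count among zeros is flagged whatever its cause. Ctrl replicate 3 had 22.86 normalized counts of *Sfrp2*, against 2.10 to 9.37 in the other controls. The same mouse had 13.72 of *Wif1*, against 0 to 1.67. Ctrl replicate 6 had 142.5 of *Dkk2*, against 83.35 to 104.4. βCat-GOF replicate 4 had 1.582 of *Dkk1*, which is 1 count, against 0 in the other 5 mice.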

How the results depend on the processing

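Under each of the 21 alternatives run (leaving out the mouse 1387-8 and leaving out βCat-GOF replicate 5 are the same fit), 1 of the antagonists was called lower (*Frzb*) and 0 higher. For *Frzb* the log2 fold change lay between -1.06 and -0.91 and the adjusted p between 3.24e-11 and 0.00851 (edgeR or DESeq2). *Sfrp4*, *Sfrp5* and *Dkk3* kept their sign without passing the threshold. *Sfrp1* turned positive with 1 surrogate variable (0.21), without the mice 1367-1-2, 1367-5-2 and 1369-2ear (0.0213), and without Ctrl replicate 3 (0.13) or βCat-GOF replicate 3 (0.0343) or 6 (0.0083), and ranged from -0.0952 to 0.127 when 1 mouse was left out. *Dkk2* turned positive with 1 surrogate variable (0.13) and without βCat-GOF replicate 3 (0.0677) or 4 (0.011), with a range of -0.322 to 0.0677 when 1 mouse was left out. Their main values were within 1 standard error of 0. The groups of *Frzb* also did not overlap under TMM scaling, and the longest transcript in place of all exons left it at 2469 and 1253 per kilobase.

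Over all genes the number called moved more. It was 323 higher and 228 lower, between 195 and 560 and between 92 and 395 when 1 mouse was left out, 675 and 569 with DESeq2, and 64 and 41 without the mice 1367-1, 1367-5 and 1369-2. *Sfrp2* and *Wif1* had log2 fold changes with DESeq2 (-0.78 and 1.03) and with no filter in edgeR (-0.80 and 0.95), none past the threshold. No paired analysis was possible because the labels give the groups no shared replicate numbers.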

Other observations

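The RNA of the antagonists can be set beside that of the Wnt ligands, a comparison chosen after the values were seen. The 19 Wnt ligands, of which *Wnt4* is the most abundant, summed to 1025 to 2327 normalized counts per kilobase in controls, and to 1833 to 3898 in βCat-GOF adrenals. The summed level of the 9 antagonists was above that of the ligands in all 6 controls, at ratios of 1.43 to 2.55 (median 1.83). In βCat-GOF adrenals it was above in 1 of 6 mice, at ratios of 0.466 to 1.06 (median 0.744). The ratio of each βCat-GOF mouse was thus below that of each control. *Frzb* made up 79.5% of the antagonist sum in controls and 69% in βCat-GOF adrenals, so the ratio is not independent of the *Frzb* result. The other 8 antagonists summed to 469.7 to 810.4 in controls and 404.8 to 668.7 in βCat-GOF adrenals, below the ligands in every mouse. The sum of the antagonists includes the Dickkopf genes, whose proteins do not act by binding ligands. These are levels of RNA in the whole gland, and they do not measure protein or say which cells hold it.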
